A study of Caenorhabditis elegans with 6 samples.

Results

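The FLP and NLP neuropeptide genes of Caenorhabditis elegans were followed in RNA-seq read counts of sorted male tail cells. Members were all rows of the count table whose WormBase symbol is flp- or nlp- followed by a number, which gave 102 genes (31 flp and 71 nlp) of 46932 in the table. The csr-1a mutant group (3 libraries) carried the allele csr-1a_delta and the WT group (3 libraries) the allele csr-1a, each behind the same inserted tag, gfp::sl2::2xflag::aid. Both groups were also him-8 mutant and carried 2 extrachromosomal arrays in which the pnc-1 and pcs-1 promoters drive the red protein wrmScarlet. The cells came from young adult males in both groups, and heat stress had been given to the parents of both as late L4 larvae. Each library was made from 5000 cells sorted as rectal valve (vir) and rectal gland (rep) cells (no purity value was used here). The tagged WT allele is therefore not an unmodified csr-1, and him-8 mutations are used to obtain many males. The series asks how loss of csr-1a, an Argonaute protein that binds small RNAs, alters the male tail.

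Neuropeptide genes encode precursor proteins that are cut at basic residues, trimmed, often amidated, and packed into dense-core vesicles. The FLP precursors give peptides related to FMRFamide, and the NLP group gathers other peptide families. Most of these genes are known from neurons, and released peptides act through G protein-coupled receptors on neurons, muscle, gut and other tissues. Some nlp genes are known outside neurons, such as the epidermal genes around nlp-29 that respond to infection and wounding, and nlp-40 of the intestine.

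Library totals were 22470932 to 47890863 counts in the mutant libraries and 17748698 to 26577422 in the WT libraries, of which ribosomal RNA took 74.4% to 78.4%. Mutant replicate 2 and WT replicate 3 had counts on the fewest genes, 12757 and 14012. All 15 pan-neuronal markers on the list used here had counts, and they summed to 2193 to 2840 CPM in the mutant and 2581 to 3421 CPM in WT (CPM, counts per 1000000 counts, here of those outside ribosomal RNA). The 9 rectal markers summed to 222 to 311 CPM in the mutant and 83.9 to 119.7 CPM in WT, also with none at 0. The 6 coelomocyte markers, led by cubn-1 and cup-4, summed to 7483 to 11379 CPM in the mutant and 16258 to 16728 CPM in WT, and the 20 body wall muscle markers, led by unc-54 and unc-22, to 41641 to 89011 CPM in the mutant and 4128 to 4689 CPM in WT. The sums of the muscle, coelomocyte and pan-neuronal markers thus lay above that of the rectal markers. These lists differ in length and in level per gene, with medians of 0.63 for rectal and 174 for muscle markers in CPM over all counts. The sums therefore do not rank cell types by number of cells. Coelomocyte markers passed the test as lower in the mutant in 6 of 6 cases, muscle markers as higher in 18 of 20, and pan-neuronal markers as lower in 1 of 15. Of the rectal markers 6 were tested, and 2 passed as higher, pnc-1 and pcs-1, whose promoters drive the reporter used in the strain.

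Neuropeptide RNA was present in every library. Of the 102 genes, 72 had at least 10 counts in at least 3 libraries, 28 of 31 flp genes and 44 of 71 nlp genes. At least 10 counts in all 6 libraries were found for 20 flp and 30 nlp genes. At the other end, 12 nlp genes and 0 flp genes reached 10 counts in no library, and nlp-28 and nlp-39 had no count at all. A count of 0 allows up to 3 counts, which is 0.0630 to 0.177 CPM after scaling, depending on the library. Single genes are given below in scaled CPM over all counts, and sums of several genes in CPM outside ribosomal RNA. Just inside the limit of 3 libraries stood nlp-43, nlp-48, nlp-68 and flp-33, with 10 counts in 3 libraries, and just outside it flp-23 and nlp-60, with 2. Of 16 genes that reached 10 counts in a single library, 10 did so in mutant replicate 1, the library with the most counts.

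**Figure D1:**
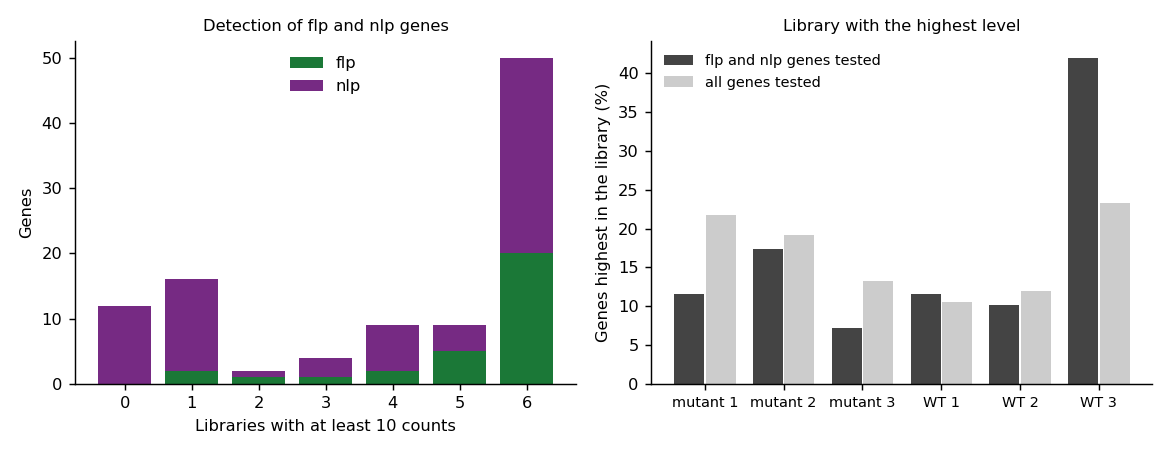
Left, number of libraries (of 6) in which each of the 102 genes had at least 10 counts, with flp and nlp genes stacked; right, percent of genes whose highest normalised level fell in each library, for the 69 flp and nlp genes tested (dark) and for all 11968 genes tested (light). Most flp genes reach 10 counts in all 6 libraries, and WT replicate 3 holds the highest level of 29 of the 69 members.

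Levels between genes are given per kb of exon, as CPM divided by exon length and averaged over 6 libraries. The highest was nlp-3 at 52.01 CPM per kb, a peptide gene known from the neurons that drive egg laying in hermaphrodites. It was followed by flp-16 (36.3), nlp-55 (33.1), nlp-61 (31.3), nlp-59 (28.5), flp-27 (25.3), flp-17 (22.7), flp-13 (21.2), flp-6 (20.7) and nlp-80 (20.6 CPM per kb). By group, nlp-3 stood at 37.7 ± 3.06 CPM per kb in the mutant and 66.3 ± 18.9 CPM per kb in WT and flp-16 at 30.6 ± 6.43 CPM per kb in the mutant and 41.9 ± 6.78 CPM per kb in WT (SD, n = 3 each), and in both groups the mean minus SD of nlp-3 lay below the mean plus SD of flp-16. No member dominated the sum: the most abundant gene of a library, nlp-59, nlp-55 and flp-27 in mutant replicates 1, 2 and 3 and nlp-3 in each WT library, took 6.13% to 8.87% of the family counts there. By these counts, which are not divided by exon length, nlp-3 was first in all 3 WT libraries, and the leading gene differed between the 3 mutant libraries.

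**Figure D2:**
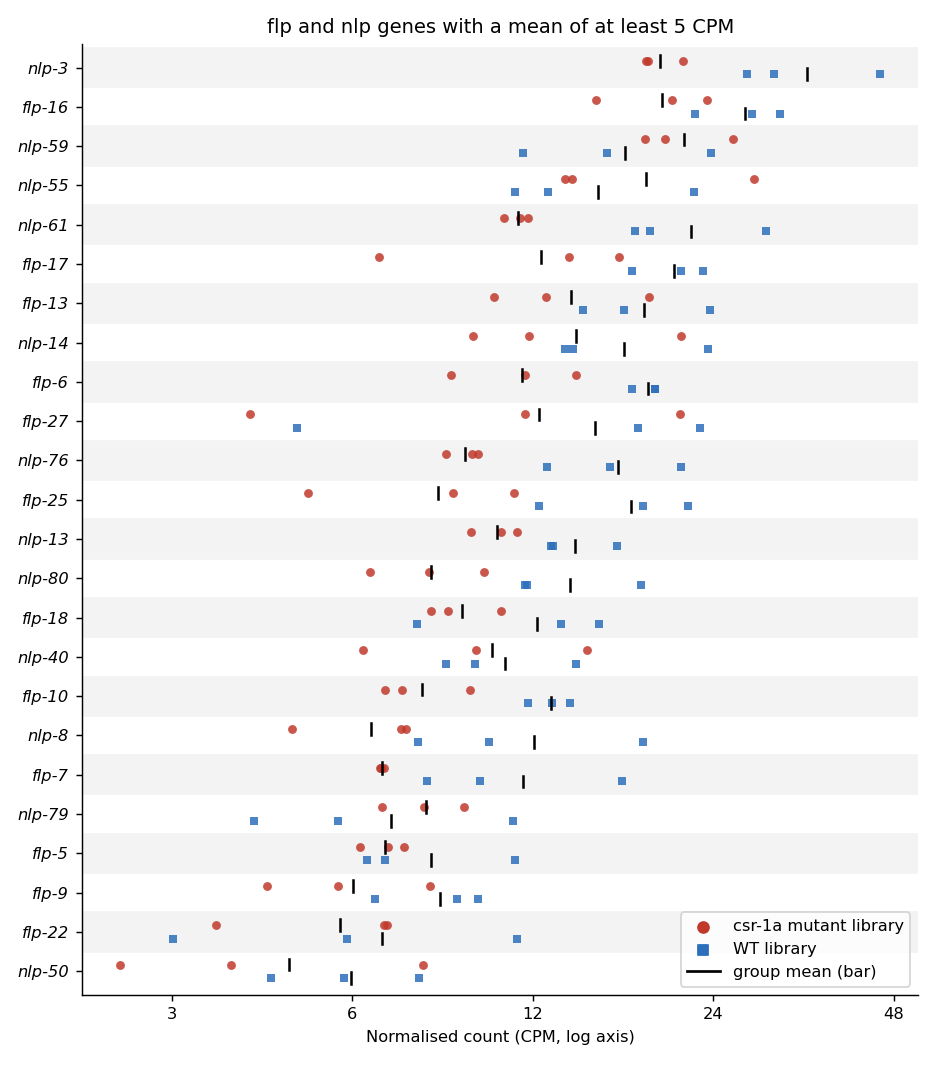
Normalised counts (CPM, log axis) of the 24 flp and nlp genes averaging 5 CPM or more over 6 libraries, ordered by that average; red circles are csr-1a mutant libraries, blue squares WT libraries and black bars group means (n = 3 each). For nlp-61 and nlp-3 every mutant library lies left of every WT library, whereas for flp-27, nlp-55 and nlp-40 the groups overlap.

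Of the 69 members tested, 1 changed between the groups: nlp-61 was lower in the mutant, and 0 members were higher, where 4.04% of all genes tested passed as higher. The members called make up 1.45% of those tested, against 5.59% of all genes that passed in either direction and 1.55% that passed as lower, so the members were not called more often than genes in general. At an unadjusted p under 0.05 stood 14 of the 69 members, beside 16.9% of all genes tested. Of the 69 members, 13 were lower at that p, beside 7.47% of all genes tested. In the other direction, 1 of the 69 was higher, beside 1124 of the 11968 genes tested. The groups did not overlap in 16 members. Of these, 14 were lower (20.3% of the members tested, against 12.2% of all genes tested) and 2 higher (2.90%, against 12.6%). The median log2 fold change (mutant over WT) was -0.35 over the 69 members, -0.39 over 27 flp genes and -0.31 over 42 nlp genes, beside 0.0097 over all genes tested. Over the 15 pan-neuronal markers it was -0.29, with 12 below 0. Over the 8 neurotransmitter markers tested it was -0.18, with 5 below 0. A lean to lower values was thus not particular to the members. In a sorted sample that holds several cell types, fewer neuron-like cells and less neuropeptide RNA per cell cannot be told apart. Members were tested only if they passed the low-count filter, and nlp-43 passed through its mutant libraries alone.

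Log2 fold changes below 0 made up 87.5% of the more abundant members and 51.1% of the less abundant ones, and the difference between these shares was not tested. Of the 24 members averaging 5 CPM or more, 21 had a log2 fold change below 0, including 12 of 12 flp genes, and their median was -0.45. Among all 4946 genes at that level, 54.9% were below 0 and the median was -0.060. In 11 of the 24 members all mutant libraries lay below all WT libraries, beside 20.0% of all genes at that level, and in 0 above, beside 15.2%. The 1 call among the 24, nlp-61, compares with 3.58% of all genes at that level that passed as lower. Of the 45 tested members under 5 CPM, 23 were below 0, with a median of -0.012.

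Single libraries weighed on these values. WT replicate 3 had the highest level of 29 of the 69 members tested (42.03%), against 23.3% of all genes tested. It was also highest for 16 of the 24 abundant members (66.7%), against 28.95% of all genes at that level. Without it, 16 of the 24 abundant members had a log2 fold change below 0 (median -0.34), among them 9 of 12 flp genes, while all genes at that level had 56.8% below 0. The members with all mutant libraries below the remaining WT libraries were 11 of 24, beside 24.5% of all genes at that level, and 3 lay above, beside 18.5%. The median over all members tested was then -0.16 and that over flp genes -0.21. Without mutant replicate 1 these medians were -0.29 and -0.17. The sum of the pan-neuronal markers in WT replicate 3 was 1.31 times the mean of the other WT libraries, and the processing enzymes' sum 1.36 times. These lists share 1 gene, egl-3. The sum of the neurotransmitter markers was 0.98 times and that of the glial markers 0.94 times. The flp and nlp sums were 1.22 and 1.42 times, and the part of the neuron content in the members' values was not tested.

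**Figure D3:**
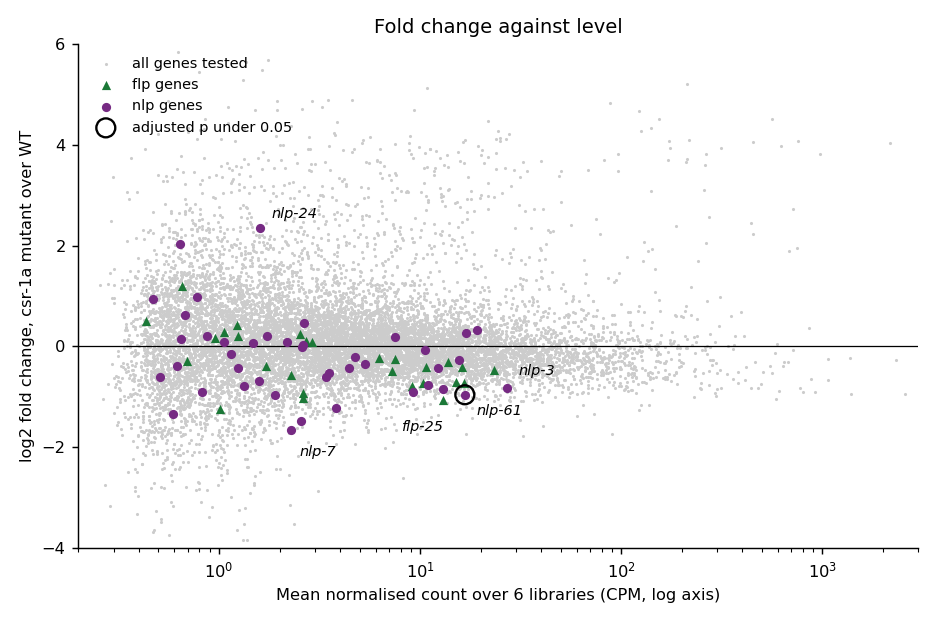
Log2 fold change (csr-1a mutant over WT) against the mean normalised count over 6 libraries (CPM, log axis) for all genes tested (grey), flp genes (green triangles) and nlp genes (purple circles); the ring marks adjusted p under 0.05, and 22 genes, none of them members, lie outside the drawn window. The more abundant members sit mostly below the line at 0, and nlp-61 alone is ringed.

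The called gene, nlp-61 (WBGene00017813, chromosome X, 7627651 to 7628233, plus strand in WBcel235), stood at 10.7, 11.8 and 11.4 CPM in the mutant libraries, against 17.8, 18.9 and 29.4 CPM in the WT libraries. The groups did not overlap, the mutant libraries lay within a narrow range, and WT replicate 3 was the highest. The level was 11.3 ± 0.541 CPM in the mutant and 22.03 ± 6.44 CPM in WT (SD, n = 3 each), with log2 fold change -0.96 ± 0.24, adjusted p = 0.0398 in the quasi-likelihood test of edgeR, with Benjamini-Hochberg adjustment over all genes tested. Every adjusted p given below is from that test unless another is named. The call rested on all 6 libraries: leaving out any single library ended it, with adjusted p up to 0.145 without WT replicate 3, and it was also absent under the replicate block (0.0715) and with library totals alone (0.0779).

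The most abundant member, nlp-3 (WBGene00003741, chromosome X, 13177856 to 13178447, minus strand), had 18.6, 21.4 and 18.7 CPM in the mutant libraries, against 30.4, 27.3 and 45.6 CPM in the WT libraries. Its groups did not overlap, but it missed the threshold (log2 fold change -0.82 ± 0.22, adjusted p = 0.0536). DESeq2 called it (adjusted p = 0.0227), as did edgeR with no low-count filter, with a filter of 10 counts in 3 libraries and without WT replicate 2. For nlp-76, whose exons overlap the nuclear receptor gene nhr-17 on the same strand by 67 bases, the levels were 8.60, 9.50 and 9.72 CPM in the mutant libraries, against 16.1, 12.7 and 21.2 CPM in the WT libraries. Again no mutant library reached the lowest WT library (log2 fold change -0.85 ± 0.25, adjusted p = 0.0748), and of the alternatives run DESeq2 alone called the gene (adjusted p = 0.0462). The same order of groups was seen for nlp-80, with 8.05, 6.42 and 9.94 CPM in the mutant libraries, against 11.7, 11.7 and 18.2 CPM in the WT libraries (log2 fold change -0.77 ± 0.28, adjusted p = 0.164). At a lower level nlp-7 had 1.24, 0.911 and 1.11 CPM in the mutant libraries, against 2.51, 1.94 and 5.97 CPM in the WT libraries. WT replicate 3 was more than double either of the other WT libraries there, and the difference did not pass (log2 fold change -1.66 ± 0.55, adjusted p = 0.124).

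Among the flp genes none was called. The most abundant, flp-16, had 15.3, 23.5 and 20.5 CPM in the mutant libraries, against 27.8, 22.4 and 31.04 CPM in the WT libraries, so that mutant replicate 2 lay above WT replicate 2 (log2 fold change -0.46 ± 0.22, adjusted p = 0.319). Exons of flp-16 overlap those of another annotated gene, which limits its level and its rank. The smallest p of the family belonged to flp-25 (WBGene00010575, chromosome III, 9361528 to 9365380, plus strand), at 5.06, 11.2 and 8.83 CPM in the mutant libraries, against 18.3, 12.3 and 21.8 CPM in the WT libraries. Its groups were separate, with mutant replicate 1 lowest (log2 fold change -1.07 ± 0.32, adjusted p = 0.0878), and it was called by DESeq2 (adjusted p = 0.0283) and by edgeR with no low-count filter (adjusted p = 0.00424). The gene flp-6 had 8.76, 14.2 and 11.7 CPM in the mutant libraries, against 17.6, 19.2 and 19.2 CPM in the WT libraries, also without overlap (log2 fold change -0.70 ± 0.23, adjusted p = 0.122). Most variable of the abundant members was flp-27, at 4.06, 11.6 and 21.2 CPM in the mutant libraries, against 18.003, 4.85 and 22.8 CPM in the WT libraries. Its highest library was 5.22 times its lowest within the mutant and 4.70 times within WT, against a median of 1.55 and 1.70 times over the 24 abundant members (log2 fold change -0.32 ± 0.58, adjusted p = 0.875). It lies inside the span of C25H3.11, which was counted at 86.7 ± 4.78 CPM in the mutant and 105 ± 6.61 CPM in WT (SD, n = 3 each). Counting by strand is not stated, so reads of overlapping genes cannot be told apart.

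The inhibitory ligands flp-17 and flp-10, which act through the receptor EGL-6, were both lower without overlap and without passing. The first, known from the carbon dioxide-sensing BAG neurons, had 13.8, 16.7 and 6.65 CPM in the mutant libraries, against 21.2, 23.1 and 17.6 CPM in the WT libraries (log2 fold change -0.73 ± 0.31, adjusted p = 0.240). For flp-10 the levels were 7.27, 6.81 and 9.45 CPM in the mutant libraries, against 13.8, 11.8 and 12.9 CPM in the WT libraries (log2 fold change -0.72 ± 0.24, adjusted p = 0.134). Mutant replicate 3 was the lowest library for flp-17 and the highest mutant library for flp-10, so the pair did not follow the same order.

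The largest positive log2 fold change of the 69 belonged to nlp-24 (WBGene00003762, chromosome V, 11616376 to 11616828, plus strand), an opioid-like peptide gene known in the control of feeding. It had 90, 110 and 40 counts in the mutant libraries, against 17, 5 and 10 counts in the WT libraries, or 1.89, 4.36 and 1.77 CPM in the mutant libraries, against 0.700, 0.255 and 0.591 CPM in the WT libraries. All mutant libraries lay above all WT libraries, but the gene did not pass (log2 fold change 2.36 ± 0.68, adjusted p = 0.0748). DESeq2 called it (adjusted p = 0.0185), limma-voom did not (0.296), and 24 bases of its exons overlap glb-15 on the opposite strand. The other member without overlap and higher in the mutant was nlp-43, with 37, 37 and 19 counts in the mutant libraries, against 7, 3 and 5 counts in the WT libraries (log2 fold change 2.04 ± 1.03, adjusted p = 0.371). In the same libraries the epidermal markers, led by rol-6 and ajm-1, summed to 405 to 526 CPM in the mutant and 218 to 286 CPM in WT, with 1 of 7 tested called higher and none at 0. Of the 7 tested, 4 had a log2 fold change above 0 and 3 below, with a median of 0.24, and 5 on the list were not tested. Levels on the list were uneven, with a median of 0.54 and a highest mean of 40.0 scaled CPM over all counts. The part of the epidermal markers in the value of nlp-24 was not tested. Among the 24 abundant members, 3 had log2 fold changes above 0: nlp-59, nlp-55 and nlp-79, the last named after its values were seen. For nlp-59 the levels were 25.9, 19.9 and 18.5 CPM in the mutant libraries, against 15.9, 11.5 and 23.8 CPM in the WT libraries (log2 fold change 0.33 ± 0.27, adjusted p = 0.654). The gene nlp-55 had 13.6, 28.04 and 13.97 CPM in the mutant libraries, against 11.2, 12.7 and 22.3 CPM in the WT libraries (log2 fold change 0.27 ± 0.34, adjusted p = 0.805), and nlp-79 had 7.90, 6.73 and 9.23 CPM in the mutant libraries, against 4.12, 5.67 and 11.1 CPM in the WT libraries. Groups overlapped for all 3 genes, and the highest library was mutant replicate 1 for nlp-59, mutant replicate 2 for nlp-55 and WT replicate 3 for nlp-79.

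Of ligands with a described role outside the nervous system, the epidermal genes gave few counts and the intestinal nlp-40 was among the abundant members. The epidermal antimicrobial cluster of nlp-27, nlp-28, nlp-29, nlp-30, nlp-31 and nlp-34 lies on chromosome V between 3978825 and 3989770. One gene of the 6, nlp-27, had enough counts to be tested, with 38, 12 and 13 counts in the mutant libraries, against 3, 5 and 10 counts in the WT libraries (log2 fold change 0.94 ± 1.17, adjusted p = 0.796). For nlp-29 there were 33, 0 and 5 counts in the mutant libraries, against 2, 0 and 0 counts in the WT libraries, most of them in mutant replicate 1. The remaining cluster genes had at most 9 counts in any library: nlp-34 had 1, 0 and 9 counts in the mutant libraries, against 3, 1 and 0 counts in the WT libraries, nlp-30 and nlp-31 a single count each in mutant replicate 3, and nlp-28 none. The intestinal ligand nlp-40, which acts on its receptor AEX-2 to drive the expulsion step of defecation, stood at 6.26, 14.8 and 9.67 CPM in the mutant libraries, against 8.61, 9.61 and 14.2 CPM in the WT libraries. The groups overlapped across most of their range (log2 fold change -0.078 ± 0.34, adjusted p = 0.959). In the same libraries the 11 intestine markers, led by vit-2 and vit-6, summed to 715 to 1343 CPM in the mutant and 829 to 917 CPM in WT, with 0 of 9 tested called.

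The ligands flp-8, flp-10, flp-12 and flp-20 are known to restrain repeated turning in mating males. Of these flp-10, given above, was the only one at more than 5 CPM. Counts were uneven for flp-20, with 95, 0 and 17 counts in the mutant libraries, against 14, 12 and 0 counts in the WT libraries (log2 fold change 1.20 ± 1.54, adjusted p = 0.806), and for flp-12, with 3, 90 and 14 counts in the mutant libraries, against 27, 21 and 16 counts in the WT libraries (log2 fold change 0.43 ± 1.08, adjusted p = 0.915). A single mutant library held most of the mutant counts in each case, replicate 1 for flp-20 and replicate 2 for flp-12. For flp-8, which was not tested, there were 7, 4 and 6 counts in the mutant libraries, against 5, 18 and 1 counts in the WT libraries. The sleep ligands were flp-13, flp-24 and nlp-8 of the ALA neuron, flp-11 of RIS and nlp-22 of RIA. Abundant among them were flp-13, with 12.6, 18.7 and 10.3 CPM in the mutant libraries, against 14.5, 17.1 and 23.7 CPM in the WT libraries (log2 fold change -0.41 ± 0.27, adjusted p = 0.549), and nlp-8, with 4.77, 7.25 and 7.36 CPM in the mutant libraries, against 10.1, 7.72 and 18.3 CPM in the WT libraries (log2 fold change -0.90 ± 0.35, adjusted p = 0.201). The groups overlapped for flp-13 and not for nlp-8, whose WT replicate 3 stood well above the other libraries. The low members were flp-11, with 30, 7 and 20 counts in the mutant libraries, against 19, 28 and 35 counts in the WT libraries (log2 fold change -1.24 ± 0.83, adjusted p = 0.543), flp-24, with 37, 12 and 40 counts in the mutant libraries, against 30, 3 and 22 counts in the WT libraries (log2 fold change 0.16 ± 0.97, adjusted p = 0.970), and nlp-22, with 3, 34 and 7 counts in the mutant libraries, against 2, 1 and 0 counts in the WT libraries, most of them in mutant replicate 2.

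Of ligands that act on locomotion and on the receptor NPR-1, flp-18 was the most abundant, at 8.13, 8.67 and 10.6 CPM in the mutant libraries, against 7.70, 13.4 and 15.5 CPM in the WT libraries. WT replicate 1 was the lowest of all 6 libraries, so the groups overlapped (log2 fold change -0.41 ± 0.29, adjusted p = 0.582). The gene flp-1 had 0.567, 4.47 and 3.24 CPM in the mutant libraries, against 0.865, 3.22 and 2.84 CPM in the WT libraries, with replicate 1 lowest in either group (log2 fold change 0.25 ± 0.72, adjusted p = 0.926). For flp-21 there were 20, 21 and 14 counts in the mutant libraries, against 25, 7 and 15 counts in the WT libraries (log2 fold change -0.29 ± 0.98, adjusted p = 0.941). The cholecystokinin-like nlp-12 of the tail interneuron DVA was near the limit of detection, with 16, 0 and 7 counts in the mutant libraries, against 2, 0 and 0 counts in the WT libraries.

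Summed over all members, flp genes took 457, 763 and 696 CPM in the mutant libraries, against 776, 727 and 921 CPM in the WT libraries outside ribosomal RNA, a mean of 638 ± 161 in the mutant and 808 ± 101 in WT (SD, n = 3 each). Mutant replicate 1 was lowest, and mutant replicate 2 lay above WT replicate 2. The nlp genes took 748, 961 and 886 CPM in the mutant libraries, against 864, 855 and 1224 CPM in the WT libraries, and there WT replicate 3 alone lay above every mutant library. The ratio of the means (mutant over WT) was 0.790 for flp and 0.882 for nlp genes. With muscle markers also left out of the denominator these ratios were 0.832 and 0.931. Without WT replicate 3 the log2 ratio was -0.24 for flp and 0.0096 for nlp genes, beside -0.34 and -0.18 with all libraries. Without mutant replicate 1 it was -0.15 for flp and -0.087 for nlp genes. The groups overlapped in both of these sums. In sums of scaled CPM over all counts the ratios were 0.704 for flp and 0.787 for nlp genes. There the flp groups did not overlap, at 110.7 to 170.7 CPM in the mutant and 171.9 to 247.2 CPM in WT, while the nlp groups did.

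**Figure D4:**
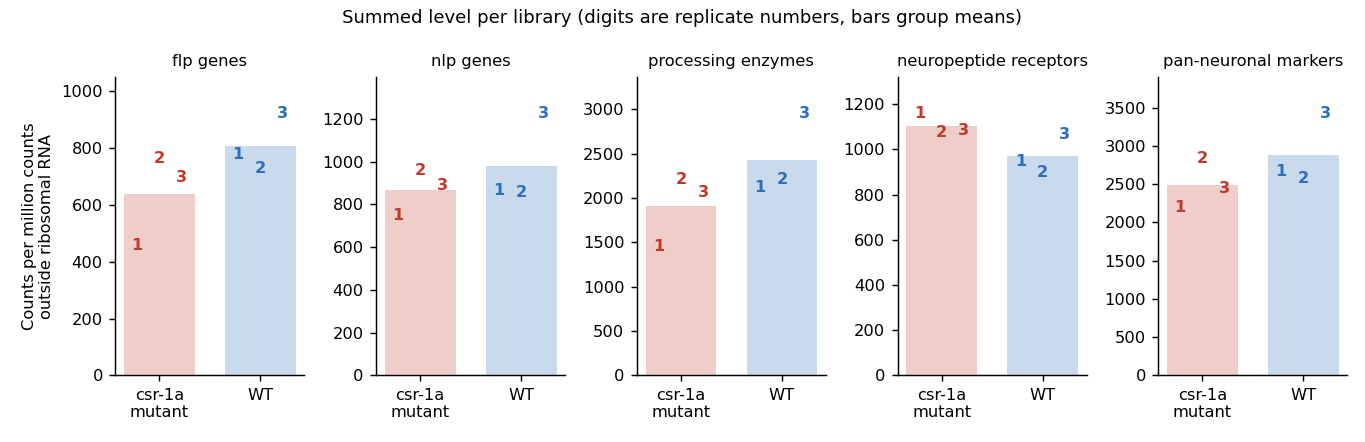
Summed CPM outside ribosomal RNA in each library for flp genes, nlp genes, 11 processing enzymes, all listed neuropeptide receptors and 15 pan-neuronal markers; digits are replicate numbers, bars are group means (n = 3), and each panel has its own axis from 0. WT replicate 3 is the highest WT library in all 5 panels, and mutant replicate 1 is the lowest library for flp and nlp genes, processing enzymes and pan-neuronal markers. The gene egl-3 is counted among both the processing enzymes and the pan-neuronal markers.

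Enzymes that cut, trim and amidate neuropeptide precursors had log2 fold changes below 0 in 8 of 11 cases. All 11 were tested, 1 was lower and 0 higher, and their median log2 fold change was -0.60. That median was -0.34 without WT replicate 3 and -0.34 without mutant replicate 1. The called gene was cpd-1, a carboxypeptidase D-type enzyme (WBGene00019074, chromosome I, 5520389 to 5529763, plus strand), at 16.6, 21.6 and 17.2 CPM in the mutant libraries, against 32.8, 26.4 and 32.9 CPM in the WT libraries (log2 fold change -0.73 ± 0.19, adjusted p = 0.0480). Its call was lost in 12 of 18 alternatives, among them without mutant replicate 1, mutant replicate 3, WT replicate 1, WT replicate 2 or WT replicate 3 (adjusted p = 0.0633 to 0.286). The proprotein convertase egl-3 had 109, 134 and 136 CPM in the mutant libraries, against 159, 158 and 265 CPM in the WT libraries, without overlap (log2 fold change -0.62 ± 0.21, adjusted p = 0.130). The carboxypeptidase egl-21, which removes the basic residues left by cutting, had 67.4, 109 and 91.6 CPM in the mutant libraries, against 118, 109.7 and 179.5 CPM in the WT libraries (log2 fold change -0.60 ± 0.22, adjusted p = 0.182). In the amidation step the values were -0.66 ± 0.24 for pghm-1, -0.92 ± 0.31 for pamn-1 and -0.43 ± 0.26 for pgal-1 (log2 fold change ± SE), and sbt-1, the chaperone of EGL-3, stood at -0.60 ± 0.29. None of these passed, nor did the other convertases bli-4 (-0.14 ± 0.16), kpc-1 (0.18 ± 0.19) and aex-5 (2.004 ± 0.55) or the carboxypeptidase cpd-2 (2.05 ± 0.66). The last 2 were low, at 3.54 ± 1.04 CPM in the mutant and 0.890 ± 0.467 CPM in WT for aex-5 and 2.81 ± 1.05 CPM in the mutant and 0.667 ± 0.379 CPM in WT for cpd-2 (SD, n = 3 each), and for both all mutant libraries lay above all WT libraries. DESeq2 called both as higher (adjusted p = 0.0175 for aex-5 and 0.0417 for cpd-2), and edgeR called aex-5 without WT replicate 3 (0.0464). With no low-count filter edgeR called aex-5 as higher (0.0391) and, as lower, egl-3 (0.00747), egl-21 (0.0163) and pghm-1 (0.0287).

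Of 16 genes of dense-core vesicles and their release, 1 was lower and 0 higher, with a median log2 fold change of -0.29, or 0.029 without WT replicate 3. The lower gene was pkc-1, a protein kinase C that promotes peptide release, at 48.7, 51.5 and 51.2 CPM in the mutant libraries, against 77.04, 78.1 and 78.4 CPM in the WT libraries. Libraries within a group were close together and the groups far apart (log2 fold change -0.63 ± 0.14, adjusted p = 0.0210), yet the call was lost in 8 of 18 alternatives, among them without mutant replicate 2, mutant replicate 3, WT replicate 1, WT replicate 2 or WT replicate 3 (adjusted p = 0.0592 to 0.169). The vesicle membrane protein gene ida-1 stood at -0.46 ± 0.22 on the log2 scale (mutant over WT; adjusted p = 0.324). The release factor unc-31 had 73.9, 49.7 and 25.6 CPM in the mutant libraries, against 28.6, 15.3 and 36.5 CPM in the WT libraries (log2 fold change 0.90 ± 0.37, adjusted p = 0.238), opposite in sign to ida-1, with mutant replicate 1 highest, and edgeR called it with no low-count filter (adjusted p = 0.00291). Of 4 neprilysin-type peptidases, which degrade peptides, 0 were called, and the smallest p was that of nep-2, with 110, 48 and 46 counts in the mutant libraries, against 5, 6 and 0 counts in the WT libraries (log2 fold change 3.54 ± 0.98, adjusted p = 0.0624). It passed the low-count filter through its mutant libraries alone. DESeq2 called it as higher (adjusted p = 0.00193), as did edgeR with no low-count filter (0.0244) and without both libraries of fewest genes (0.0357). Of 6 other neuropeptide genes outside the insulin family, 5 were tested and 0 called. The smallest p among them was that of snet-1, with 41.7, 37.7 and 41.5 CPM in the mutant libraries, against 37.7, 37.5 and 78.4 CPM in the WT libraries (log2 fold change -0.34 ± 0.26, adjusted p = 0.625).

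**Figure D5:**
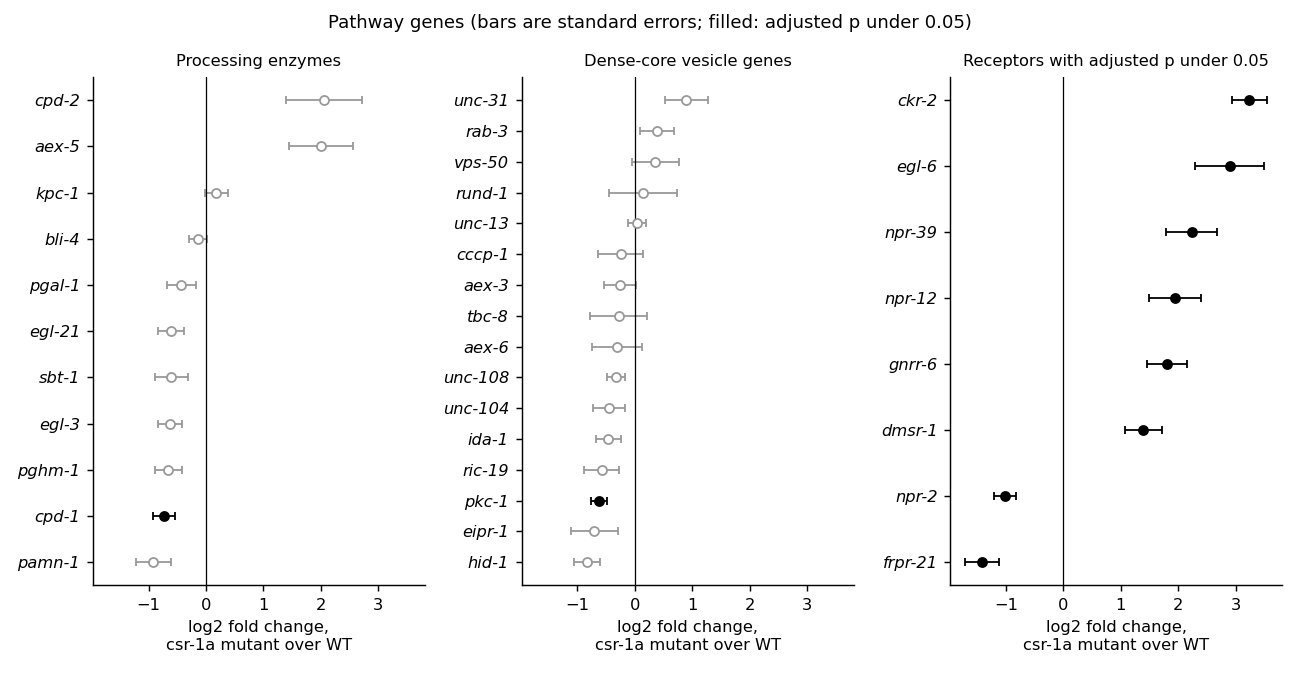
Log2 fold change (csr-1a mutant over WT) with its standard error for all 11 processing enzymes, all 16 dense-core vesicle genes and the 8 neuropeptide receptors with adjusted p under 0.05 of 81 tested; filled points passed the test. In the processing and vesicle lists cpd-1 and pkc-1 are the filled points, and 6 of the 8 receptors lie right of 0.

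Receptors, the proteins on which these ligands act, included both higher and lower genes. Of the receptor genes on the list 81 were tested and 23 were not, and npr-30 and dmsr-15 had no count at all. In the mutant 6 passed as higher and 2 as lower. Those numbers were 2 and 1 without mutant replicate 1, 3 and 0 without WT replicate 1, 3 and 1 without WT replicate 3, 4 and 2 without mutant replicate 3 or WT replicate 2, and 3 and 2 with limma-voom. Their median log2 fold change was -0.087 and, with single libraries left out, ran from -0.21 without WT replicate 2 to 0.095 without WT replicate 1. The share called, 9.88%, stands beside 5.59% of all genes tested. The difference in share between receptors and ligands was not tested. The smallest p was that of ckr-2, the cholecystokinin-type receptor for NLP-12 (WBGene00021439, chromosome III, 2009299 to 2021595, minus strand), at 25.01, 18.8 and 12.9 CPM in the mutant libraries, against 2.14, 1.89 and 1.95 CPM in the WT libraries (log2 fold change 3.24 ± 0.31, adjusted p = 1.65e-04). It was called in 18 of 18 alternatives, while its ligand gene nlp-12 gave at most 16 counts in a library. Also higher were gnrr-6, related to receptors of gonadotropin-releasing hormone, at 10.1, 10.9 and 6.70 CPM in the mutant libraries, against 2.93, 3.22 and 1.77 CPM in the WT libraries (log2 fold change 1.80 ± 0.35, adjusted p = 0.0113), and npr-39, at 8.39, 4.67 and 4.13 CPM in the mutant libraries, against 1.52, 1.23 and 0.887 CPM in the WT libraries (log2 fold change 2.23 ± 0.44, adjusted p = 0.0128). The genes egl-6, dmsr-1 and npr-12 were named after their values were seen. EGL-6 is the receptor of FLP-10 and FLP-17, and egl-6 had 4.22, 2.30 and 2.93 CPM in the mutant libraries, against 0.453, 0.562 and 0.236 CPM in the WT libraries (log2 fold change 2.89 ± 0.61, adjusted p = 0.0167). DMSR-1 is a receptor of FLP-13, and dmsr-1 had 12.9, 6.97 and 8.87 CPM in the mutant libraries, against 3.83, 3.12 and 4.02 CPM in the WT libraries (log2 fold change 1.39 ± 0.32, adjusted p = 0.0283). The last of the 3, npr-12, had 7.31, 3.88 and 3.59 CPM in the mutant libraries, against 1.15, 1.07 and 1.66 CPM in the WT libraries (log2 fold change 1.94 ± 0.45, adjusted p = 0.0300). The ligands flp-10, flp-17 and flp-13 had log2 fold changes of -0.72 ± 0.24, -0.73 ± 0.31 and -0.41 ± 0.27, none of which passed.

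Lower receptors were npr-2, at 16.5, 23.6 and 18.3 CPM in the mutant libraries, against 41.1, 33.9 and 42.7 CPM in the WT libraries (log2 fold change -1.01 ± 0.19, adjusted p = 0.00984), and frpr-21, a receptor of the FMRFamide type, at 8.87, 6.18 and 14.6 CPM in the mutant libraries, against 27.5, 23.5 and 28.02 CPM in the WT libraries (log2 fold change -1.41 ± 0.29, adjusted p = 0.0155). The call of npr-2 ended only without WT replicate 1 (adjusted p = 0.0674). That of gnrr-6 ended without both libraries of fewest genes (0.0548). That of npr-39 ended without mutant replicate 1 or WT replicate 3 (adjusted p = 0.0513 to 0.0912) and with limma-voom (0.0632). That of frpr-21 ended without mutant replicate 1, WT replicate 1 or WT replicate 3 (adjusted p = 0.0548 to 0.0644) and without both libraries of fewest genes (0.0752). The call of egl-6 ended without mutant replicate 1, mutant replicate 3 or WT replicate 1 (adjusted p = 0.0575 to 0.122) and with limma-voom (0.153). The call of npr-12 ended without mutant replicate 1, WT replicate 1, WT replicate 2 or WT replicate 3 (adjusted p = 0.0545 to 0.185), with limma-voom (0.0809) and with the replicate block (0.0728). That of dmsr-1 ended without mutant replicate 1, mutant replicate 3, WT replicate 1, WT replicate 2 or WT replicate 3 (adjusted p = 0.0669 to 0.130). Beside the receptor values, the 20 body wall muscle markers summed to 89011, 41641 and 45334 CPM in the mutant libraries, against 4689, 4128 and 4216 CPM in the WT libraries. Their part in the receptor values was not tested.

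Neurotransmitter markers, led by tbh-1 and eat-4, summed to 102 to 133 CPM in the mutant and 115 to 129.9 CPM in WT, with 0 of 8 tested called and the groups overlapping. Glial markers, led by lit-1 and fig-1, summed to 148 to 207 CPM in the mutant and 149.6 to 195 CPM in WT, with 0 of 5 called, a median log2 fold change of -0.53 and hlh-17 at 0 in every library. Sperm markers, led by msp-36 and msp-31, summed to 43.9 to 77.1 CPM in the mutant and 18.5 to 109 CPM in WT, with 0 of 8 called.

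In the genome, 13 of 31 flp and 19 of 71 nlp genes lie on the X chromosome, together 31.4%, beside 13.7% of the protein-coding genes in the table. The 26 tested members on X had a median log2 fold change of -0.40, with 16 below 0. Medians on the autosomes ran from -0.55 (chromosome IV, 10 members) to -0.11 (chromosome V, 10 members). Member genes are short, with a median exon length of 562 bp against 1161 bp over protein-coding genes, so that a given CPM rests on less sequence. The span of another protein-coding gene holds 12 members: nlp-2, nlp-22, nlp-23 and nlp-45 lie within T01B6.1, flp-2, flp-3 and flp-28 within W07E11.1, and flp-1, flp-27, nlp-48, nlp-50 and nlp-69 within a host gene each. Exons of 19 members overlap exons of another annotated gene, and the median log2 fold change was -0.52 over the 11 of them tested and -0.30 over the 58 tested members without overlap.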

How the data were processed

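Raw read counts per gene in 6 libraries were deposited by the authors as a single table, with whole numbers and different totals per library. The tools named in the submitters' processing notes are DESeq2, featureCounts (Subread 2.0.0), STAR and fastp 0.20.1; no source used here names the build, the annotation release or the strand setting. The labels' protocols give TRIzol for the RNA and a VAHTS Universal V8 kit for the libraries. Symbols, coordinates (WBcel235, 1-based) and exon lengths came from Ensembl release 115 by WormBase identifier, which matched 46919 of 46932 genes.

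The tests used R 4.3.3 and edgeR 4.0.16: filterByExpr by group (minimum count 10, minimum total 15), TMM scaling, glmQLFit with robust=TRUE and glmQLFTest on group alone, Benjamini-Hochberg over 11968 genes, threshold 0.05. CPM uses the same scaling and all counts, mostly ribosomal RNA. Counting error alone is given by the limit of 3 counts. The fit was also run on simulated counts, with changes placed only in genes above the minimum count and no outlying library. That run does not bear on the low members or on the spread from single libraries. The members and lists were chosen with earlier results of these data known. Among list names, seb-2, opt-2 and mir-228 matched no gene. Named were members passing the test, the 10 smallest p, the 10 highest levels per kb and the 5 highest flp genes, ligands with listed roles, genes at the edge of the 10-count rule, up to 5 called genes per pathway list, egl-3, egl-21, unc-31 and ida-1, and the 2 leading genes of each marker list. Genes that host or overlap members are also named.

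Replicate numbers did not pair libraries: same-numbered deviations from the group means correlated at 0.037, -0.020 and -0.068 (numbers 1, 2 and 3). No libraries of a group agreed within sampling noise (chi-square per degree of freedom at least 6.73), and the labels do not state separate cultures, so p-values measure the spread between these libraries. Alternatives were a replicate block, RLE size factors, library totals alone, ribosomal RNA or muscle markers left out, 3 other filters, DESeq2 1.42.0, limma-voom (limma 3.58.1), robust=FALSE, and libraries left out.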

Additional observations from a re-analysis of the deposited data

How the results depend on the processing

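The number of members changed was 1 in the main setting and 0 with a replicate block, with library totals alone and without both libraries of fewest genes; it was 2 with a filter of 10 counts in 3 libraries, 3 with no filter and 5 with DESeq2 (nlp-3, nlp-61, flp-25 and nlp-76 lower, nlp-24 higher). Leaving out single libraries gave 0 to 1, the 1 being nlp-3 without WT replicate 2. Under the replicate block, whose numbers do not pair the libraries, 560 genes changed, and no member did. Genes changed were 669 with all libraries, 416 to 697 without single libraries (416 without WT replicate 1, 422 without WT replicate 3), 1048 with no filter and 1039 with DESeq2. With library totals alone 573 genes were higher and 89 lower, against 484 and 185 with the main scaling, and the median of all genes stood at 0.11 (log2) while that of the members was -0.20. The median over flp and nlp members together was below 0 in every setting run, -0.14 with no filter and -0.46 to -0.16 without single libraries (nearest to 0 without WT replicate 3). For nlp genes alone the median turned to 0.099 with no filter, where 31 of 69 were below 0 and the median of all genes was 0.037. The log2 ratio of the summed flp level ran from -0.49 to -0.15 without single libraries, that of nlp from -0.27 to 0.0096 and that of both from -0.36 to -0.100; the nlp value turned without WT replicate 3. Of 1025 single-gene values compared, 921 kept their direction and side of the threshold, 61 lost and 19 gained a call, and 24 turned in direction, none of them called. Of these, flp-1 ran from -0.26 to 0.76 without single libraries (turned without mutant replicate 2 or WT replicate 1), and was -0.25 with limma-voom and -0.12 without both libraries of fewest genes. flp-24 ran from -0.45 to 0.55 without single libraries (turned without mutant replicate 3 or WT replicate 2). nlp-68 ran from -0.17 to 1.12 without single libraries (turned without mutant replicate 3), and was -0.43 with limma-voom. snet-1 ran from -0.53 to 0.089 without single libraries (turned without WT replicate 3), and was 0.18 without both libraries of fewest genes. flp-12 ran from -1.64 to 1.002 without single libraries (turned without mutant replicate 2), and was -0.77 with the replicate block, -1.91 with limma-voom and -1.75 without both libraries of fewest genes. flp-20 ran from -0.084 to 1.82 without single libraries (turned without mutant replicate 1). nlp-40 ran from -0.39 to 0.20 without single libraries (turned without mutant replicate 1 or WT replicate 3), and was 0.049 with library totals alone and 0.014 with 5 CPM in 3 libraries. flp-21 ran from -0.63 to 0.044 without single libraries (turned without WT replicate 1). flp-27 ran from -0.93 to 0.13 without single libraries (turned without mutant replicate 1 or WT replicate 3), and was 0.14 without both libraries of fewest genes. nlp-55 ran from -0.095 to 0.62 without single libraries (turned without mutant replicate 2). The causes were not tested. Counts limit the low members: 33 of 102 genes were not tested in the main setting, and with no low-count filter 100 were tested.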
